A study of Rattus norvegicus with 12 samples.

Results

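The genes described here are 10 neuropeptide genes of the rat hypothalamus: Pmch, Hcrt, Oxt, Avp, Agrp, Pomc, Trh, Gal, Crh and Cartpt. They were picked out by symbol from the 24102 gene rows of the read-count table, and they were selected on measured values, because Pmch stood out in the comparison of the hemorrhage hemisphere with the other hemisphere in an earlier look at these data. Every value of that comparison is therefore given for these genes as a description, and nothing is read from it as a test. All 10 genes were present in the table and all 10 had the 10 reads in total over the 12 libraries that a gene needed to enter the fit. Pmch, Hcrt, Oxt and Avp owed most of their reads to a few libraries.

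The libraries were polyA RNA-seq of brain tissue from aging male Sprague Dawley rats in which autologous blood had been injected into the striatum of the left hemisphere, a model of intracerebral hemorrhage (ICH). Tissue was taken at 3 days after ICH, and the right hemisphere, which received no blood, was the contralateral control. There were 4 groups of 3 biological replicates: contralateral and ICH hemispheres at 13 months, and contralateral and ICH hemispheres at 22 months. The age field of the older samples says 21 months, whereas the study's description says 22, and the older groups are called 22-month here. No sham-injected or uninjected rats are among the groups, so injection and blood cannot be told apart. The labels name the tissue only as brain, and which regions each block held is not stated. Total reads assigned to genes ran from 21060355 to 41262330 per library. Levels are given as reads, as CPM, which are reads scaled to the size of each library with the TMM factors of edgeR, or, where different genes are set side by side, as FPKM, which also divides by gene length. At these depths 3 reads, taken as the floor, correspond to between 0.0758 and 0.143 CPM.

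Neuropeptides are cut from larger precursor proteins, packed into dense-core vesicles and released to act on G protein-coupled receptors. Many of them are made at very high levels by small clusters of hypothalamic neurons, so a tissue block that takes in a small nucleus can hold many more transcripts of its peptide than one that misses it. Melanin-concentrating hormone and orexin come from neighbouring neurons of the lateral hypothalamus, vasopressin and oxytocin from large neurons of the paraventricular and supraoptic nuclei, and the appetite peptides AgRP and POMC from the arcuate nucleus. In bulk tissue, fewer cells of a type and less RNA per cell cannot be told apart.

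Several libraries stood apart from the others in ways the group labels do not give. Contralateral 13-month replicate 2 had 0.789% of its reads on mitochondrial genes, against 7.06% to 12.6% in the other libraries. The same library, contralateral 22-month replicate 1 and ICH 22-month replicate 3 held 2635, 624 and 1595 reads of Slc6a3, the dopamine transporter of midbrain neurons, against 0 to 8 in the remaining libraries. Among the ICH libraries, 22-month replicate 2 carried little of the injury signal. Its 11 injury and immune genes summed to 238 CPM, against 868 to 7051 CPM in the other ICH libraries and 104 to 418 CPM in the contralateral libraries. Their part in the values of the neuropeptide genes was not tested.

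Pmch (ENSRNOG00000004632, chromosome 7) encodes the precursor of melanin-concentrating hormone, a peptide of lateral hypothalamic neurons that promotes feeding and sleep. The contralateral hemispheres held 13, 36 and 9 reads of it at 13 months and 10, 32 and 11 at 22 months. The ICH hemispheres held 48, 2111 and 127 reads at 13 months and 1795, 24 and 20 at 22 months. In each ICH group 1 library was therefore far above the others, 13-month replicate 2 at 74.1 CPM and 22-month replicate 1 at 65.2 CPM, while the ICH 22-month replicates 2 and 3, at 1.03 and 0.689 CPM, lay inside the contralateral range of 0.402 to 1.24 CPM. Those 2 libraries together held 92.2% of the summed CPM of Pmch over the 12 libraries. At 13 months the ICH libraries did not overlap with the contralateral ones, and at 22 months they did. The group means were 0.722 ± 0.45 and 26.8 ± 41 CPM at 13 months, and 0.567 ± 0.214 and 22.3 ± 37.1 CPM at 22 months (contralateral, then ICH; SD, n = 3), so the SD of each ICH group exceeded its mean.

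Hcrt (ENSRNOG00000018892, chromosome 10) encodes the precursor of the orexins, which keep animals awake and which neurons next to the Pmch neurons make. Its reads were 4, 26 and 4 in the contralateral hemispheres at 13 months and 0, 5 and 3 at 22 months. They were 21, 197 and 72 in the ICH hemispheres at 13 months and 240, 0 and 17 at 22 months. The same 2 libraries that led for Pmch led for Hcrt, at 6.92 CPM in 13-month replicate 2 and 8.71 CPM in 22-month replicate 1, and they held 74.4% of its summed CPM. ICH 13-month replicate 3 ranked next for both genes, at 4.47 CPM of Pmch and 2.54 CPM of Hcrt. With a count of 0 in contralateral 22-month replicate 1 and in ICH 22-month replicate 2, Hcrt was not detectable there at a depth where 3 reads make 0.121 and 0.129 CPM. Per unit of length the Pmch level was 2.70 times that of Hcrt in ICH 13-month replicate 2 and 1.88 times in ICH 22-month replicate 1, but only 0.443 times in ICH 13-month replicate 3.

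**Figure D1:**
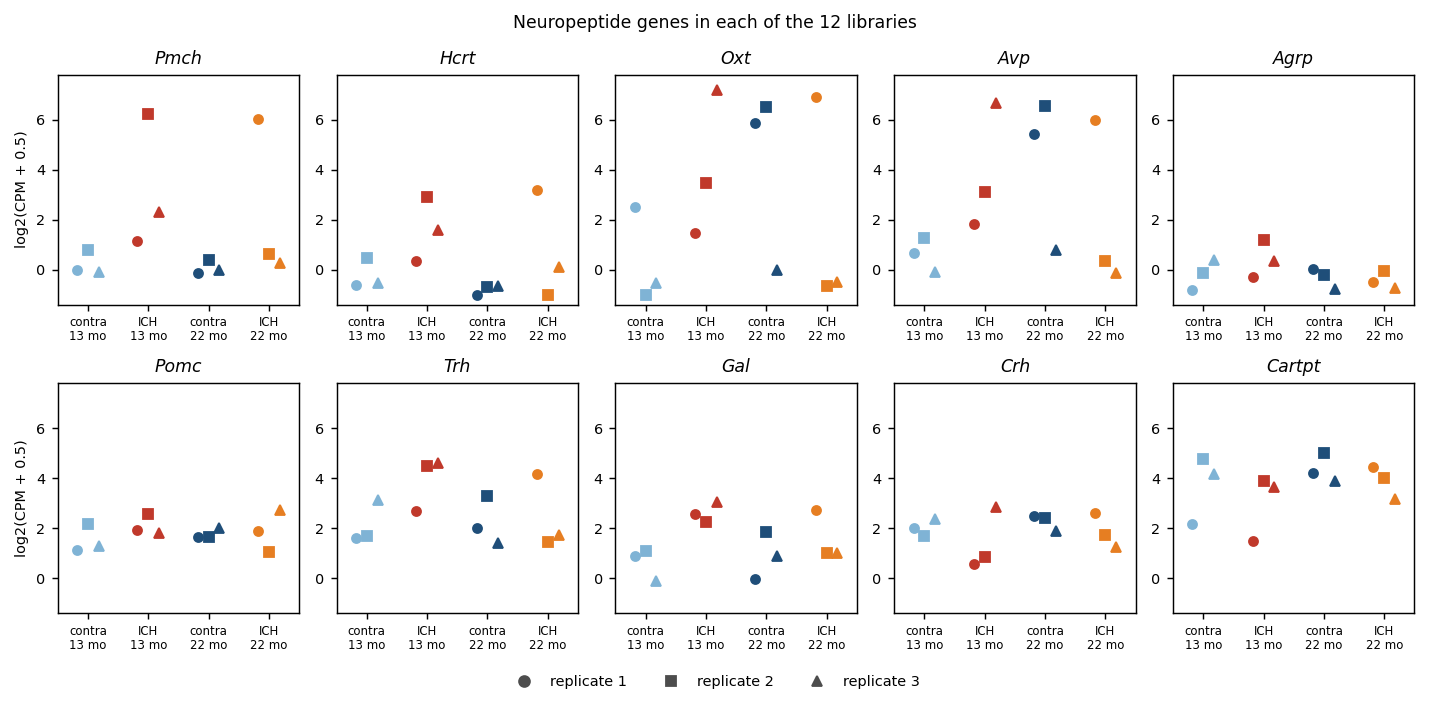
Level of each of the 10 neuropeptide genes, as log2(CPM + 0.5), in the 12 libraries, 1 panel per gene. Each point is 1 library, colours are the 4 groups and marker shapes the replicate numbers. Pmch and Hcrt are high in ICH 13-month replicate 2 and ICH 22-month replicate 1, whereas Oxt and Avp are high in 4 libraries, of which 2 are contralateral.

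Oxt (ENSRNOG00000021225) and Avp (ENSRNOG00000021229), both on chromosome 3, encode the precursors of oxytocin and vasopressin, the posterior pituitary hormones of milk ejection and water balance. They are direct neighbours, with 0 genes listed between them in the RefSeq annotation of the GRCr8 assembly, and are read from opposite strands. Since these genes were high in the same libraries, the 250 bases before the start of each are shown, 5′ to 3′ on the gene's own strand, from RefSeq on GRCr8, Oxt from chr3:138235504-138235753 (plus strand) and Avp from chr3:138248523-138248772 (minus strand). Capitals mark matches, on either strand, to 4 motifs: TATAAA (the TATA box), AGGTCA (a core site of nuclear receptors), CACGTG (an E-box) and TGACGTCA (the cAMP response element).
Oxt: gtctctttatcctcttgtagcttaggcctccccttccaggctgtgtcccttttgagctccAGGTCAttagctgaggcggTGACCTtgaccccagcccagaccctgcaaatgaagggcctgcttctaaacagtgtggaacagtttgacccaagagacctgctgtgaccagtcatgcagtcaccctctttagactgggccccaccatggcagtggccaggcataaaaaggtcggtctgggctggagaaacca
Avp: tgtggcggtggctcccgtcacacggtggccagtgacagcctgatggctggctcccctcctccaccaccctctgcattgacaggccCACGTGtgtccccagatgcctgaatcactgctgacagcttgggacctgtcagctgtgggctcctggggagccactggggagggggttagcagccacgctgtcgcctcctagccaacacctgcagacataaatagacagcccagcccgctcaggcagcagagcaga
Oxt held AGGTCA on its own strand, starting 190 bases before the start of the gene, and on the opposite strand starting 171 bases before it. Avp held CACGTG starting 165 bases before its start. AGGTCA occurred in 14.1% of 33360 distinct promoter windows of this length, and CACGTG in 5.61%. Neither window held the TATA box or the cAMP response element in these letters. Of the 10 genes, 8 had a promoter entry, all but Pmch and Crh. The TATA box was present in 3 of the 8, Gal, Pomc and Hcrt, and in 12.9% of all windows. The nuclear receptor site was present in 3, Oxt, Trh and Pomc, the E-box in Avp alone, and the cAMP response element in Cartpt alone, with 1.59% of all windows holding it. The windows of Oxt and Avp thus shared no match to the 4 motifs, and a match is only a description of the letters.

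The reads of Oxt were 134, 0 and 4 in the contralateral hemispheres at 13 months and 1451, 3579 and 11 at 22 months. In the ICH hemispheres they were 63, 296 and 4075 at 13 months and 3318, 3 and 6 at 22 months. Avp followed the same libraries, with 29, 55 and 9 contralateral reads at 13 months, 1065, 3673 and 28 at 22 months, 85, 231 and 2898 in the ICH hemispheres at 13 months, and 1718, 18 and 12 at 22 months. For both genes the 4 highest libraries were ICH 13-month replicate 3, ICH 22-month replicate 1 and contralateral 22-month replicates 1 and 2. These 4 held 95.6% of the summed CPM of Oxt and 94.6% of that of Avp. High libraries were thus found in both hemispheres. The hemispheres overlapped at both ages for Oxt and at 22 months for Avp, whereas at 13 months the ICH libraries, from 3.06 CPM of Avp, lay above the contralateral ones, up to 1.89 CPM. The precursors of oxytocin and vasopressin share a nearly identical stretch of coding sequence. Reads that mapped to several places were discarded by the authors, so reads from that stretch may be missing for both genes, and their counts are uncertain to that extent. In the 4 high libraries the level of Oxt per unit of length was between 1.05 and 2.08 times that of Avp, whereas in contralateral 13-month replicate 1 it was 4.99 times, and contralateral 13-month replicate 2 held 0 reads of Oxt beside 55 of Avp.

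ICH 22-month replicate 1 was among the high libraries of both pairs. ICH 13-month replicate 2, the highest in Pmch, reached only 10.4 CPM of Oxt and 8.11 CPM of Avp, against 144 and 102 CPM in ICH 13-month replicate 3. Contralateral 22-month replicates 1 and 2, at 58.3 and 90.4 CPM of Oxt, were at 0.402 and 0.809 CPM of Pmch. The pair of the lateral hypothalamus and the pair of the large neurosecretory neurons were therefore not high in the same set of libraries.

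**Figure D2:**
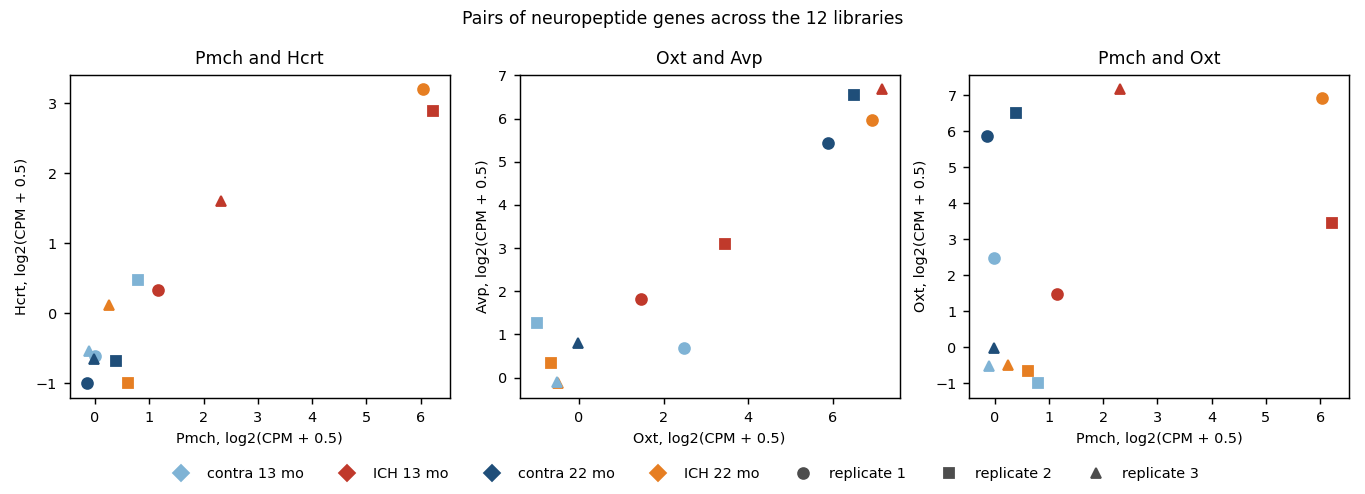
Levels of Hcrt against Pmch, Avp against Oxt and Oxt against Pmch, each as log2(CPM + 0.5), with 1 point per library, colours for the 4 groups and marker shapes for replicate numbers. The first 2 panels show genes that are high in the same libraries, and the third shows libraries with 58.3 and 90.4 CPM of Oxt at under 1 CPM of Pmch.

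The arcuate nucleus genes had smaller differences between libraries. Agrp, which encodes the hunger peptide that blocks melanocortin receptors, was near the floor, with 2 to 17 reads in the contralateral hemispheres and 3 to 51 in the ICH hemispheres, and 3 of its 12 libraries had 3 reads or fewer. Its highest library was ICH 13-month replicate 2, at 1.79 CPM. Pomc encodes the precursor of the melanocortins, which curb feeding, and of beta-endorphin. Its reads were 45, 117 and 41 in the contralateral hemispheres at 13 months and 65, 105 and 79 at 22 months, and in the ICH hemispheres 92, 156 and 86 at 13 months and 89, 37 and 180 at 22 months. The highest Pomc level, 6.20 CPM in ICH 22-month replicate 3, was 1.98 times the median over the libraries, whereas the highest Pmch level was 80.6 times its median. The hemispheres overlapped at each age for Agrp and Pomc. Cartpt encodes the CART peptides of arcuate and many other neurons, including those of the striatum, and it was the only member whose highest library was contralateral. It ranged from 4.05 to 31.8 CPM in the contralateral hemispheres and from 2.30 to 21.7 CPM in the ICH hemispheres.

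Trh, Gal and Crh are made in the paraventricular nucleus and in many places outside the hypothalamus. Trh, which encodes thyrotropin-releasing hormone, had 67, 79 and 173 contralateral reads at 13 months and 89, 367 and 49 at 22 months. The ICH hemispheres held 164, 627 and 683 reads of it at 13 months and 477, 52 and 81 at 22 months. The highest 3 libraries of Trh, ICH 13-month replicates 3 and 2 and ICH 22-month replicate 1, at 24.1, 22.0 and 17.3 CPM, were the 3 that also led for Pmch and Hcrt. Gal encodes galanin, which injured neurons are also known to make. Its reads were 36, 48 and 9 in the contralateral hemispheres and 152, 121 and 222 in the ICH hemispheres at 13 months, where the groups did not overlap, and 12, 122 and 30 and then 172, 36 and 44 at 22 months, where they did. The 4 highest Gal libraries were all ICH libraries, 13-month replicates 1 to 3 and 22-month replicate 1, between 4.25 and 7.82 CPM. Crh encodes corticotropin-releasing hormone, the starting signal of the stress axis, and ranged from 2.76 to 5.19 CPM in the contralateral hemispheres and from 0.971 to 6.69 CPM in the ICH hemispheres, which enclosed the contralateral range.

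On the FPKM scale the order of the 10 genes depended on the few high libraries. By the mean over the 12 libraries it was Oxt 46.8, Avp 31.8, Cartpt 13.0, Trh 4.38, Pmch 4.09, Gal 2.46, Hcrt 2.26, Crh 2.11, Pomc 2.09 and Agrp 0.546. By the median it was Cartpt 12.6, Oxt 4.79, Avp 3.18, Trh 2.38, Pomc 1.98, Crh 1.90, Gal 1.43, Hcrt 0.505, Agrp 0.420 and Pmch 0.275. Pmch was thus the fifth gene by mean and the last by median. Some neighbours in either order, though not all, were closer together than the SD among replicates of a group. Crh and Pomc were such a pair, and the SD of Pomc in the ICH hemispheres at 22 months was 1.61 FPKM around a mean of 2.35.

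The comparison of the hemispheres asks what ICH changes 3 days later. As a description of the comparison that chose the genes, the fitted log2 fold change of ICH over contralateral, averaged over both ages, was 5.21 for Pmch (SE 1.30), 4.02 for Hcrt (SE 1.12), 2.28 for Oxt (SE 1.57) and 1.95 for Avp (SE 1.28). It was 1.61 for Gal (SE 0.51), 1.25 for Trh (SE 0.60), 0.47 for Pomc, 0.42 for Agrp, -0.32 for Crh and -0.62 for Cartpt. Their median was 1.43, beside 0.005 over all 19061 genes tested. With edgeR, adjusting over all genes, 1 of the 10, Pmch, was under an adjusted p of 0.05 (called, in what follows), where 5.44% of all genes were (4.98% higher and 0.451% lower in ICH). At an unadjusted p under 0.05 there were 4651 of the 19061 genes, the number to set beside the list counts of this averaged comparison below. Nothing is read from the count of called members. Pmch was called in only 2 of the 12 fits with 1 library left out. Those were the fits without ICH 13-month replicate 3 or ICH 22-month replicate 2, in which Hcrt was called too. With libraries paired by replicate number within an age, which the labels do not tie to a rat, 0 members were called. DESeq2 gave Pmch no p and called 2 others, Hcrt and Gal, among 2594 genes that it called in this comparison. The Pmch difference followed its high libraries: it was 3.66 without ICH 13-month replicate 2, 2.86 without ICH 22-month replicate 1 and 1.33 without both. Oxt and Avp turned to -1.64 and -0.64 without ICH 22-month replicate 1, and Oxt was 4.47 without contralateral 13-month replicate 1.

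**Figure D3:**
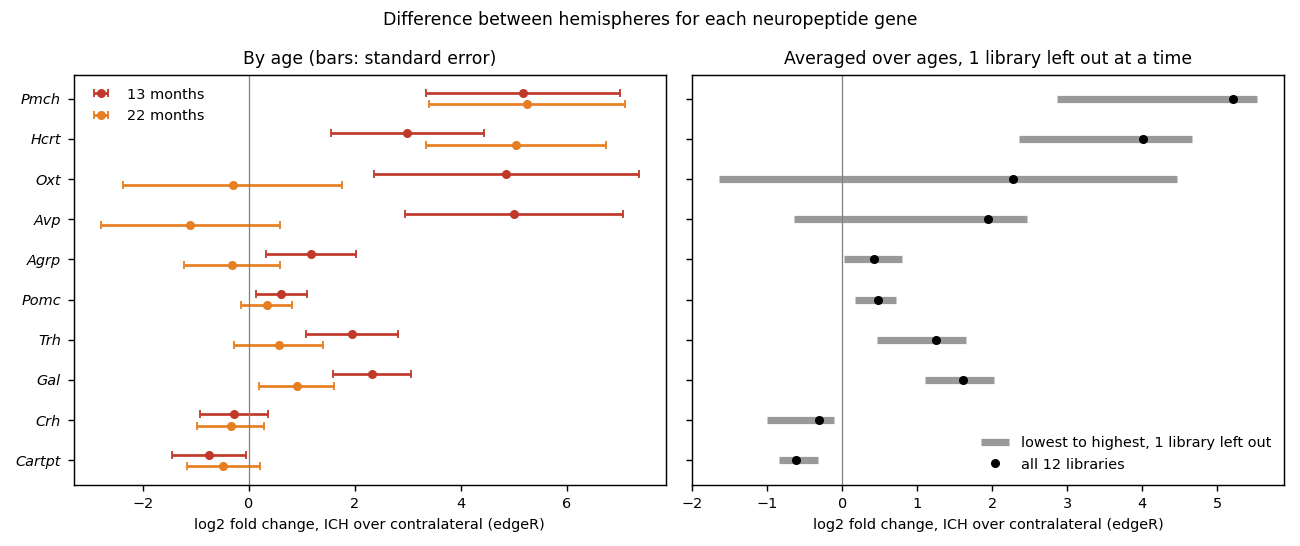
Log2 fold change of ICH over contralateral for each of the 10 genes from edgeR. On the left, points are the estimates at 13 and 22 months and bars are standard errors (3 libraries per group). On the right, black points are the estimates averaged over ages and grey bars run from the lowest to the highest estimate when 1 library is left out. The grey bars of Oxt and Avp cross 0, and that of Pmch runs from 2.86 to 5.54.

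Taken by age, the same difference was 5.17 (SE 1.83) at 13 months and 5.25 (SE 1.85) at 22 months for Pmch, and 2.99 (SE 1.45) and 5.04 (SE 1.71) for Hcrt. For Oxt it was 4.86 (SE 2.50) at 13 months and -0.31 (SE 2.06) at 22 months, and for Avp 5.0 (SE 2.06) and -1.11 (SE 1.69). Neither age alone gave any gene, member or not, an adjusted p under 0.05 in edgeR (0% called at 13 months and 0% at 22 months). Unadjusted p under 0.05 were found for 4010 genes at 13 months and 1396 at 22 months. DESeq2 called 1641 and 209 genes, and of the members Avp and Gal at 13 months and none of the 9 with a p at 22 months.

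Whether the effect of ICH differed between ages, and whether the contralateral hemisphere differed with age, are not the comparison in which Pmch stood out. They use the same libraries, however, and the members were chosen with earlier results of these data known. For the difference in ICH effect, 22 against 13 months, edgeR called 0 of the 10 members and 0 of 19061 genes (0%), with 299 genes, Avp among them, at an unadjusted p under 0.05 and 0 called by DESeq2. The estimate was -6.11 on the log2 scale for Avp (SE 2.64, edgeR adjusted p = 1), -5.17 for Oxt (SE 3.18, edgeR adjusted p = 1) and 0.07 for Pmch (SE 2.30). These estimates rested on single libraries. That of Pmch was 3.18 without ICH 13-month replicate 2 and -4.63 without ICH 22-month replicate 1, so 0.07 does not show an equal effect at both ages. Those of Oxt and Avp were -2.13 and -3.36 without ICH 13-month replicate 3, and -13.01 and -11.29 without ICH 22-month replicate 1. In the contralateral hemisphere, 22 against 13 months, edgeR called 0 of the 10 members where 7 of all genes (0.0367%) were called. Avp had the largest difference of the members, 5.28 on the log2 scale (SE 2.08, edgeR adjusted p = 0.995), higher in 2 of the 3 older libraries than in any younger one, with 28 reads in the remaining one. Oxt, at 4.80 (SE 2.50, edgeR adjusted p = 0.995), had 11 reads in that same older library, contralateral 22-month replicate 3, and was at 9.18 without contralateral 13-month replicate 1. At an unadjusted p under 0.05 there were 777 genes, of which Avp was the single member, and DESeq2 called 38 genes, none of them among the 9 members to which it gave a p.

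Taken as a sum, to which the most abundant genes contribute most, the receptors of these peptides showed no such high libraries. Single receptors, named after their values were seen, did stand higher in 1 library. Galr3 had 13 reads in ICH 13-month replicate 3 and 0 to 9 in the others. Mc3r had 21 reads in contralateral 13-month replicate 2 and 1 to 13 in the others. Trhr was at 8.55 CPM (192 reads) in contralateral 22-month replicate 3 and at 1.1 to 4.1 CPM in the others. The list held 16 genes, of which Avpr1b was not analysed here, and 0 of the 15 tested were called in edgeR for ICH over contralateral averaged over ages (2 at an unadjusted p under 0.05, 0 called by DESeq2, which gave 1 no adjusted p and at 13 months called Crhr2, named after its values were seen). The median log2 fold change was -0.18, with 6 positive and 9 negative. Mchr1, the receptor of melanin-concentrating hormone, was the most abundant by mean CPM, followed by Trhr2 and Crhr1. Its reads ran from 351 to 783 in the contralateral hemispheres and from 282 to 537 in the ICH hemispheres, and the libraries with 2111 and 1795 reads of Pmch had 282 and 537 reads of Mchr1. The summed receptor level ran from 46.3 to 61.7 CPM in the contralateral and from 36.4 to 55.9 CPM in the ICH hemispheres.

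Genes of neuropeptide handling, mostly enzymes and granule proteins such as Cpe, Chgb and Scg5 but also Crhbp, whose protein binds CRH, and Trhde, whose enzyme breaks down TRH, both named after their values were seen, were all below 0 in the estimate, with a median of -0.35 over 12 genes, but 0 of the 12 were called in edgeR (6 at an unadjusted p under 0.05, 4 called by DESeq2). Their summed level was lowest in ICH 13-month replicate 1, at 2757 CPM, and ICH 13-month replicate 2, the library highest in Pmch, was next at 2958 CPM. Of 27 other neuropeptide genes tested, 0 were called in edgeR (3 at an unadjusted p under 0.05, 1 called by DESeq2, which gave 4 no adjusted p), with a median of -0.19. Cck, Sst and Penk, made by many cortical and striatal neurons, were the most abundant. Npy, also named after its values were seen, had 0 to 4 reads in each library, although it is widely expressed in brain, so its row cannot be taken as a measure of that gene. Npvf, chosen after its values were seen, is a marker of the dorsomedial hypothalamus and had 48 reads in ICH 13-month replicate 2 and 0 to 4 in the other libraries.

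Since the labels do not say which regions each block held, 18 hypothalamic genes that encode no peptide were set beside the members. Of these, 0 were called in edgeR for ICH over contralateral averaged over ages (2 at an unadjusted p under 0.05, 0 called by DESeq2, which gave 5 no adjusted p and at 13 months called Nkx2-1, named after its values were seen), and the median was 0.50, with 15 positive and 3 negative. By age the median was 1.33 at 13 months and 0.06 at 22 months. Their summed level was 9.43, 36.0 and 7.08 CPM in the contralateral hemispheres at 13 months, 11.4, 37.6 and 25.0 CPM at 22 months, 11.3, 32.5 and 51.6 CPM in the ICH hemispheres at 13 months, and 33.1, 23.1 and 17.7 CPM at 22 months. Magel2 was the most abundant by mean CPM, followed by Calcr and Gpr101, and none of these is limited to the hypothalamus.

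Both libraries highest in Pmch were among the upper 5 in this sum, together with ICH 13-month replicate 3 and contralateral 13-month replicate 2 and 22-month replicate 2. Some genes that mark single regions of the hypothalamus, singled out after their values were seen, were high in 1 of the 2. In ICH 13-month replicate 2 there were 11 reads of Rax, 18 of Nkx2-4, 9 of Bsx and 16 of Nr5a1, which mark tanycytes and the medial hypothalamus, against 0 to 2, 0 to 5, 0 to 1 and 1 to 8 in the other libraries. ICH 22-month replicate 1 had 0 reads of Rax, Nkx2-4 and Bsx and 4 of Nr5a1. Other genes of the list, picked out in the same way, did not single out ICH 13-month replicate 2. There and in ICH 13-month replicate 3 Fezf1 had 37 and 37 reads, Six6 16 and 16 and Hmx3 14 and 23. ICH 22-month replicate 1 had 23 of Fezf1 and 18 of Hmx3. Contralateral 22-month replicate 3 had 26 reads of Fezf1. Contralateral 22-month replicate 2 and 13-month replicate 2 had 14 and 11 of Hmx3. Foxb1 and Lhx1, chosen likewise, were highest in contralateral 13-month replicate 2, at 52 and 116 reads. Sim1 and Otp, which specify the neurons of Oxt and Avp and were also picked out after their values were seen, had 62 and 91 reads in ICH 13-month replicate 3, 67 and 51 in ICH 22-month replicate 1, 35 and 34 in contralateral 22-month replicate 2, but 8 and 15 in contralateral 22-month replicate 1. Contralateral 13-month replicate 2 had 83 reads of Otp beside 0 of Oxt, and ICH 22-month replicate 2 had 47 of Sim1 and 0 of Otp beside 3 of Oxt. ICH 13-month replicate 1 had 39 of Sim1 and 10 of Otp beside 63 of Oxt. These markers thus differed between libraries of the same group, and whether that bears on the neuropeptide values was not tested.

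**Figure D4:**
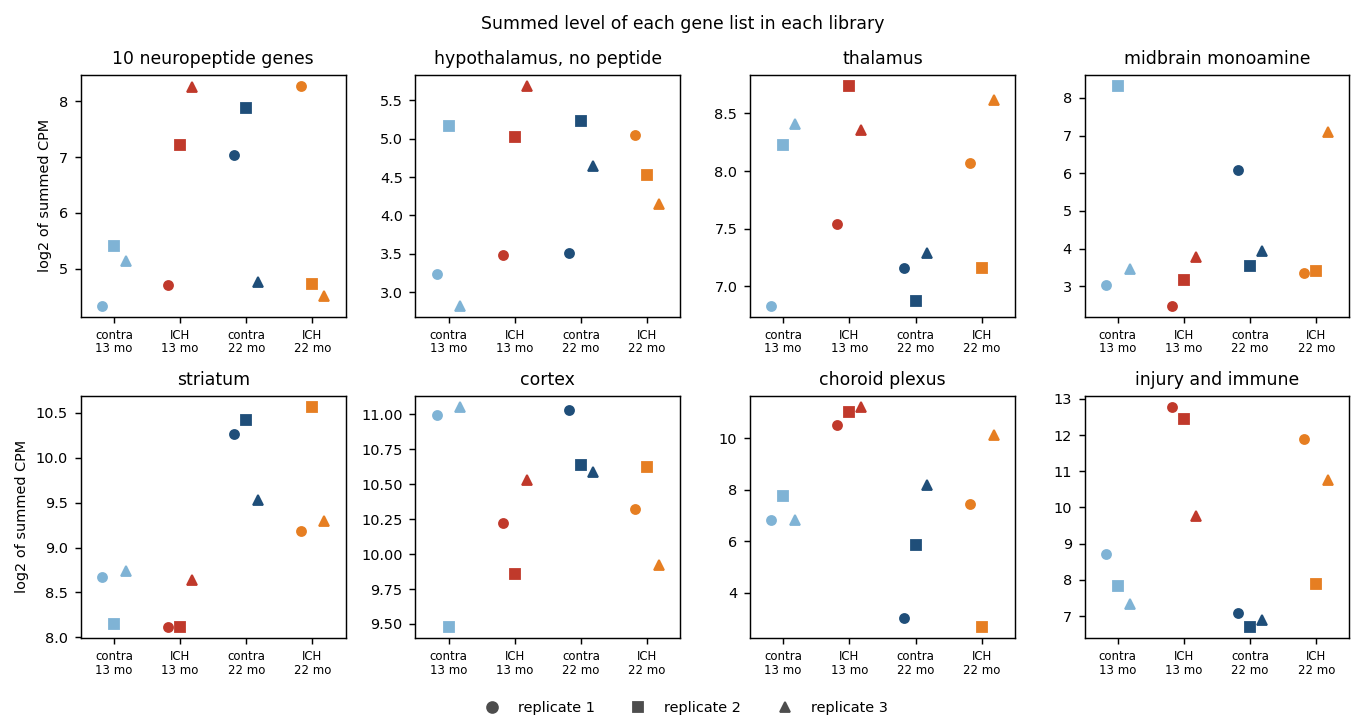
Summed level of 8 gene lists in each library, as log2 of the summed CPM, with 1 point per library, groups on the horizontal axis and marker shapes for replicate numbers. The vertical scale differs between panels. The 10 neuropeptide genes and the midbrain, choroid plexus and injury lists spread widely within groups.

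Other regions also varied within groups. Of 10 thalamus genes, 0 were called in edgeR (3 at an unadjusted p under 0.05, 2 called by DESeq2) and 10 had a positive estimate, with a median of 0.81. Prkcd, Slc17a6 and Tcf7l2 were the most abundant. The thalamus sum was highest in ICH 13-month replicate 2, the library highest in Pmch, at 428 CPM, and was 269 CPM in ICH 22-month replicate 1, against 114 to 339 CPM in the contralateral hemispheres. The next highest was that of ICH 22-month replicate 3, which had 20 reads of Pmch. Of 7 midbrain monoamine genes, among them Th, Ddc and Slc6a3, 0 were called in edgeR (2 at an unadjusted p under 0.05), with a median of -1.87 averaged over ages, -4.12 at 13 months and 0.45 at 22 months. DESeq2 gave 6 of the 7 no adjusted p averaged over ages or at either age, so its count of 0 averaged over ages holds for 1 gene only, and at 13 months it called the 1 with an adjusted p, Pitx3, named after its values were seen. Their sum was 321 CPM in contralateral 13-month replicate 2, 136 CPM in ICH 22-month replicate 3 and 68.2 CPM in contralateral 22-month replicate 1, and 5.57 to 15.3 CPM elsewhere. Both Pmch-high libraries were in that low range. Of 9 striatum genes, with Ppp1r1b and Pde10a among the most abundant, and of 9 cortex genes, with Slc17a7, Lamp5 and Cux2, 0 were called in edgeR (0 and 1 at an unadjusted p under 0.05, 0 called by DESeq2, which gave 1 striatum gene no adjusted p), with medians of -0.12 and -0.43. The striatum sum was 407, 284 and 427 CPM in the contralateral hemispheres at 13 months and 1230, 1373 and 740 CPM at 22 months, and 278, 277 and 400 CPM in the ICH hemispheres at 13 months and 581, 1520 and 629 CPM at 22 months. It did not follow Oxt and Avp over all libraries: contralateral 22-month replicates 1 and 2 were high in both, but the highest sum was that of ICH 22-month replicate 2, with 3 reads of Oxt and 18 of Avp, and ICH 13-month replicate 3, the highest in both, was at 400 CPM. For age in the contralateral hemisphere 0 of the 9 striatum genes were called in edgeR, where 7 of 19061 genes (0.0367%) were. Of these 9, 8 were at an unadjusted p under 0.05 in edgeR, where 777 of all genes were, and 6 were called by DESeq2. Their median was 2.02 on the log2 scale, higher at 22 months. Of 7 pituitary genes tested, 0 were called in edgeR (1 at an unadjusted p under 0.05, 1 called by DESeq2, which gave 5 no adjusted p), with a median of 0.29. Cga, Lhb and Tbx19 were the most abundant, and the 772 reads of Cga in contralateral 22-month replicate 2, an Oxt-high and Avp-high library, compared with 0 to 40 in the others, while Gh1 and Prl were at 0 there. Tshb had 48 reads there and 0 to 2 elsewhere, and Pitx1 had 22 there, 16 in contralateral 13-month replicate 2 and 0 to 2 elsewhere. ICH 22-month replicate 3, the library highest in Pomc, had 27 reads of Gh1 and 3 of Prl. The other libraries had 0 to 3 reads of Gh1 and 0 of Prl. Gh1, Prl, Tshb and Pitx1 were singled out after their values were seen. The parts of these regions in the neuropeptide values were not tested.

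The library differences in injury genes were set beside Pmch in the same way. Of the 11 injury and immune genes, 10 were higher in ICH in edgeR (90.9%, beside 4.98% of all genes; 11 at an unadjusted p under 0.05, 11 called by DESeq2), with a median of 3.97. Lcn2, an acute-phase protein of reactive astrocytes and neutrophils, rose by 5.77 (SE 0.93, edgeR adjusted p = 0.0313), and Msr1, Gpnmb, Hmox1, Cd68 and Spp1, of macrophages and heme breakdown, by 4.36, 4.31, 4.24, 4.19 and 3.97. The reads of Lcn2 were 15951, 23070 and 4904 in the ICH hemispheres at 13 months and 26180, 301 and 4350 at 22 months. The 2 libraries highest in Lcn2 were the 2 highest in Pmch. ICH 13-month replicate 1, next in Lcn2 and with the highest injury sum, 7051 CPM, had 48 reads of Pmch. Lyz2, the most abundant of the list, had 51476 and 37787 reads in the 2 Pmch-high libraries, 44945 in ICH 13-month replicate 1 and 1394 to 16960 in the other ICH libraries. Of 10 genes of brain cell types, with Mbp and Gfap among the most abundant, 3 were called higher in ICH: Csf1r (1.40) and Cx3cr1 (1.12) of microglia and Gfap (1.35) of astrocytes (5 at an unadjusted p under 0.05). DESeq2 called 5, these and 2 named after their values were seen, Aqp4 of astrocytes (0.54 in edgeR) and Snap25 of neurons, which was lower in ICH (-0.56 in edgeR). Of 7 choroid plexus genes, 2 were called higher, Slc4a5 (2.89) and Kcnj13 (2.28), 7 were positive and at an unadjusted p under 0.05, and DESeq2 called 6. Ttr, Clic6 and Kl were the most abundant. The choroid plexus sum was 2083 CPM in ICH 13-month replicate 2 but 176 CPM in ICH 22-month replicate 1, so the Pmch-high libraries did not share it. The number of calls in the averaged comparison changed with single libraries: 0 genes were called in 9 of the 12 fits with 1 library left out and in the fit without both Pmch-high libraries. The other 3 fits called 521 genes without contralateral 13-month replicate 1, 2949 without ICH 13-month replicate 3 and 2329 without ICH 22-month replicate 2. The part of injury in the neuropeptide values was not tested.

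Genes whose pattern over the 12 libraries was most like that of Pmch were ranked by Pearson's r of log2(CPM + 0.5) among 14461 genes with a mean of at least 1 CPM, as a description. The 8 first were Siglec8 (r = 0.966), Hcrt (0.952), Tnfrsf9 (0.924), Ccl20 (0.913), Ccl5 (0.896), Sod2 (0.878), Gimap4 (0.867) and LOC499229 (0.866). Hcrt was the only neuropeptide gene among them. Siglec8, a lectin of immune cells, had 353 reads in ICH 13-month replicate 2, 163 in ICH 22-month replicate 1 and 3 to 46 in the others. Ccl20 and Ccl5 encode chemokines that draw lymphocytes, and Ccl20 had 151 and 164 reads in the 2 Pmch-high libraries and 0 to 22 in the others. Tnfrsf9 is a costimulatory receptor of T cells, with 175 and 227 reads in those libraries and 24 to 95 in the others. Sod2, the mitochondrial superoxide dismutase that inflammation induces, had 14298 and 14463 reads there and 3752 to 10159 in the others. With 2 of 12 libraries so far above the rest, r mainly says which genes were high in those 2. The Spearman coefficient, which uses only the order of the libraries, was 0.853 for Siglec8, 0.771 for Hcrt and 0.305 for Ccl20, and for Gal, far lower by r, it was 0.923. Of the other members, Trh ranked 120, Gal 516, Oxt 3142, Avp 3354, Pomc 3525, Cartpt 5728 and Crh 7920, and Agrp, with a mean under 1 CPM, was not ranked. The part of hypothalamic content or of the injury in the Pmch values was not tested.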

How the data were processed

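Brain tissue of 12 samples in 4 groups of 3 was profiled by polyA RNA-seq. The authors used Cutadapt for trimming and TopHat2 for alignment to Rnor_6.0 with Ensembl annotation, dropped reads with several locations and deposited count values and FPKM values per gene. The submitters' processing notes also name bcl2fastq and edgeR. The counting tool and any use of strand are not given in the sources used here, so reads of overlapping or antisense genes cannot be told apart. Each of the 2 tables holds 4 columns of a further replicate that match no sample, 8 in all, and they were not used.

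Genes whose counts reached 10 over the 12 libraries were fitted with edgeR 4.0.16 (TMM scaling, 4 group means, quasi-likelihood test, prior count 0.125) in R 4.3.3, with Benjamini-Hochberg adjustment over all genes and a threshold of 0.05. DESeq2 1.42.0, limma 3.58.1 on log2(FPKM + 1) or log2(FPKM + 0.1), other scalings and filters, a replicate block and fits without libraries were the alternatives. The scripts of the averaged comparison were tested on simulated data, where false calls of DESeq2, unlike those of edgeR, exceeded the threshold. Those data were drawn with the spread that edgeR estimated and held no libraries that stood apart as a whole. They therefore cannot say which tool is more reliable on these libraries, and DESeq2 calls are given as an alternative only. Figures were drawn with matplotlib 3.10.9. Where n is 3 per group, spread is between rats.

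Named genes were all 10 members, the 3 genes with the highest mean CPM of each other list and up to 6 called in the averaged comparison, and the 8 genes most like Pmch. Genes named outside this rule were chosen after their values were seen. Not every gene that this rule takes is reported here. Members and lists were chosen with earlier results of these data known. Nms, Qrfp, Avpr1b, Vgf, Gpr52, Neurod2, Fshb and Otx2 of the lists were not analysed here. Counts and floors carry counting error only, since reads were not counted as molecules.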

Additional observations from a re-analysis of the deposited data

Results flagged for a closer look

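In each hemisphere the 6 libraries of both ages were compared for each of the 10 genes, which makes 20 comparisons. In 1 of them a library lay far from the others for the size of the range: Hcrt in contralateral 13-month replicate 2, at 0.895 CPM (26 reads), above the other contralateral libraries at 0 to 0.191 CPM. Chance gives about 1 such library in 20 comparisons. The same library had the lowest mitochondrial share and the highest Slc6a3 count, and the part of these in the Hcrt value was not tested. The high libraries of Pmch, Oxt and Avp were not marked in this way, because the next library was close on the log2 scale.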

How the results depend on the processing

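Of the 10 members 1 was called in the averaged comparison, and this count was 2 with DESeq2, 0 with limma at either pseudocount, 0 without both Pmch-high libraries and 0 without the 3 libraries highest in Slc6a3, an alternative chosen after seeing the data. It ran from 0 to 2 with 1 library left out, 2 without ICH 13-month replicate 3 or ICH 22-month replicate 2. Genes called in the averaged comparison, 1036 in all, were 2594 with DESeq2, 0 and 1 with limma on log2(FPKM + 1) and log2(FPKM + 0.1), 0 without both Pmch-high libraries, 0 without the 3 Slc6a3-high libraries, and from 0 to 2949 with 1 library left out. At 13 months the count was 1641 with DESeq2 and 0 to 2064 with 1 library left out, at 22 months 209 with DESeq2, 1 with limma on log2(FPKM + 0.1) and 0 to 137 with 1 left out. For age in the contralateral hemisphere, 7 genes became 38 with DESeq2, 11 with no filter, 4 with limma on log2(FPKM + 1), 3 without both Pmch-high libraries, 0 without the 3 Slc6a3-high ones and 2 to 13 with 1 left out. The cause was not tested. In the averaged comparison, counts of called receptors and of hypothalamic genes without a peptide were 0 under every alternative run. Over 21 alternatives the difference of Pmch kept its sign, from 1.33 to 5.73, and its adjusted p ran from 0.017 to 0.291 in those that gave one. Pmch was chosen on this comparison and every alternative reuses the same libraries, so its sign and range are a description only. Oxt and Avp were negative in 2 alternatives each, without ICH 22-month replicate 1 and without both Pmch-high libraries.

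The replicate block pairs libraries by number within an age. Same-numbered libraries deviated together in 5 of 6 pairs (r over 0.1; lowest 0.076, mean 0.232), and 11 of 12 libraries correlated best with their own number, a hint from the data. The labels do not say that a number marks a rat, so the libraries are taken to share only a number. With the block 1069 genes and 0 members were called, and Pmch was at 3.37. For genes such as Agrp and Hcrt, a depth of 21060355 to 41262330 reads leaves single-digit counts in many libraries, which limits the precision of differences.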
